A study of Homo sapiens with 10 samples.

Results

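The collagen chain genes are the 43 gene symbols of the expression table that read COL, a number, A and a number, out of 27992 gene symbols in all. They carry 178 of 80920 transcripts and fall into 11 fibrillar chains, 8 basement membrane chains and 24 other chains. The level of a gene is the mean BPKM over its transcripts, where BPKM is the number of mapped bases for each kb of exons, scaled to the size of the library.

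The RNA came from the human neuroblastoma line SH-SY5Y after stable transfection and selection with geneticin at 600 µg/ml. The 5 conditions were human (hsaFOXP2), common chimpanzee (ptrFOXP2), Rhesus monkey (mmuFOXP2) and white-tufted ear marmoset (cjaFOXP2) FOXP2 cDNA in the pcDNA3 expression plasmid and, as their control, the empty plasmid (pcDNA3). Each condition had 2 libraries, replicates A and B, which the labels tie to 2 rounds of transfection. All libraries share the parental line and the selection, so a p-value measures the spread between transfected populations of 1 cell line.

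Collagens are secreted or membrane proteins in which 3 chains wind into a triple helix, and each chain comes from its own gene. Fibrillar chains build the rope-like fibrils of connective tissue, type IV chains form the sheet under epithelia and around vessels, and the remaining families link, cover or anchor these structures. In neuroblastoma, collagen-rich stroma is usually made by Schwann cells and fibroblasts, and cultured lines differ in how much matrix they make themselves.

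FOXP2 itself was at 0.932 and 1.54 BPKM in hsaFOXP2 replicates B and A, between 2.09 and 30.2 BPKM with the 3 non-human cDNAs and at 0 and 0.0045 BPKM in pcDNA3 replicates B and A, so FOXP2 RNA was lower with the human cDNA than in any non-human FOXP2 library. For the protein, the paper proposes about equal FOXP2 amounts with human and non-human cDNAs, from densitometry of Western blots of 3 biological replicates. Between 20200 and 20794 genes were above 0 in a library. The table holds no read counts, so the absolute depth is unknown. Of 10 noradrenergic neuroblastoma markers, 9 averaged 1 BPKM or more, and TH, the enzyme of the first step of catecholamine synthesis, was the exception (0 to 0.002 BPKM). Among 10 fibroblast or mesenchymal markers, 9 likewise reached this level, with POSTN listed at 0 in every library, and SOX10, a defining gene of Schwann cells, did not exceed 0.0143 BPKM. All 5 endothelial and all 4 immune markers had means under 0.1 BPKM. In such bulk samples, more cells of a type and more RNA per cell cannot be told apart.

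COL3A1 was the most abundant collagen RNA in every library. Of the 43 chains, 11 had a mean of at least 10 BPKM, 6 had 1 to 10 BPKM, 8 had 0.1 to 1 BPKM and 18 lay under 0.1 BPKM. At 1 BPKM or above were thus 17 of the 43 chains, beside 57.4% of the 23348 genes that were above 0 in at least 1 library. COL3A1 alone made up 49.1% to 60.8% of the summed collagen BPKM of a library. Fibrillar chains together held 61.5% to 70.9% of that sum, basement membrane chains 7.60% to 13.03% and other chains 19.7% to 28.8%, so fibrillar chains came before other chains and basement membrane chains came last in all 10 libraries.

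Among the fibrillar chains, COL3A1 encodes the only chain of type III collagen, which is abundant in skin, vessel walls and other extensible tissues. In replicates B and A, COL3A1 was at 1208 and 447 BPKM with hsaFOXP2, 626 and 452 with ptrFOXP2, 394 and 549 with mmuFOXP2, 726 and 959 with cjaFOXP2 and 683 and 488 with pcDNA3. Its highest library was hsaFOXP2 replicate B and its lowest mmuFOXP2 replicate B, a span of 3.06-fold, and both cjaFOXP2 libraries were above the pcDNA3 libraries while the ranges of hsaFOXP2, ptrFOXP2 and mmuFOXP2 overlapped with that of pcDNA3. COL1A1 encodes the major chain of type I collagen, the main protein of bone and tendon. It was at 79.8 and 16.6 BPKM with hsaFOXP2, 28.9 and 39.4 with ptrFOXP2, 29.9 and 70.8 with mmuFOXP2, 57.6 and 84.2 with cjaFOXP2 and 67.3 and 54.5 with pcDNA3 in replicates B and A, so the hsaFOXP2 libraries lay on either side of the pcDNA3 libraries.

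The usual partner of COL1A1 in type I collagen, COL1A2, was nearly silent. COL1A2 ranged over 0.0689 to 0.205 BPKM across the 10 libraries, and the ratio of COL1A1 to COL1A2 was 80.6 to 1145. The type V chains, which sit in the core of fibrils and set their diameter, were likewise uneven. COL5A1 was at 97.5 and 73.8 BPKM with hsaFOXP2, 73.6 and 44.5 with ptrFOXP2, 42.2 and 52.8 with mmuFOXP2, 48.7 and 42.0 with cjaFOXP2 and 60.4 and 43.0 with pcDNA3, replicates B and A in turn, and COL5A2 was at 0.85 and 0.382 BPKM with hsaFOXP2, 0.725 and 0.684 with ptrFOXP2, 0.617 and 0.638 with mmuFOXP2, 0.876 and 0.693 with cjaFOXP2 and 0.751 and 1.51 with pcDNA3. The ratio of COL5A1 to COL5A2 was thus 28.5 to 193.

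COL11A1, a chain of type XI collagen that starts fibrils in cartilage and can mix with type V chains, was at 18.5 and 16.9 BPKM with hsaFOXP2, 10.6 and 12.1 with ptrFOXP2, 12.2 and 10.96 with mmuFOXP2, 14.3 and 17.1 with cjaFOXP2 and 10.9 and 10.4 with pcDNA3 in replicates B and A. Replicate B of hsaFOXP2 was highest, followed by replicate A of cjaFOXP2 and then replicate A of hsaFOXP2, and the coefficient of variation over the 10 libraries was 22.9%. COL27A1, a minor fibrillar chain of cartilage, was at 3.78 and 2.02 BPKM with hsaFOXP2, 3.18 and 2.49 with ptrFOXP2, 3.14 and 2.57 with mmuFOXP2, 2.41 and 2.67 with cjaFOXP2 and 2.56 and 2.36 with pcDNA3, with hsaFOXP2 replicate B highest and replicate A lowest. The remaining fibrillar genes COL2A1, COL5A3, COL11A2 and COL24A1 had means of 0.0016 to 0.094 BPKM. The highest of these, COL11A2, has 34 transcripts in the table, of which 29 were at 0 in every library, and its other 5 transcripts averaged 0.554 to 0.726 BPKM. COL2A1, the marker collagen of cartilage cells, did not exceed 0.015 BPKM.

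In the basement membrane class, 5 of 8 chains had a mean of at least 1 BPKM. Type IV genes lie in pairs, head to head, and the members of each pair are read in opposite directions from start sites that lie close together. In the RefSeq windows for GRCh38.p14, 126 bases separate the start sites of COL4A1 and COL4A2, 379 those of COL4A5 and COL4A6 and 418 those of COL4A3 and COL4A4. The stretch between the first of these pairs and the windows before the start sites of COL4A5, of COL6A3 and of COL11A1 are shown because these genes carry the pair pattern and the differences between conditions given further on. Capitals mark matches to CCAAT or GGGCGG on either strand (ATTGG and CCGCCC on the other), and the bases run 5′ to 3′ on the strand of the named gene. The expression table is on hg19, so genes and windows were joined by symbol only.
COL4A2 (chr13:110307158-110307283, plus strand, all bases between the start sites): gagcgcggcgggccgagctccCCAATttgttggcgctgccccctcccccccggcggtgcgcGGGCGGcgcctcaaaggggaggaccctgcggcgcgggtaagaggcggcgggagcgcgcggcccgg
COL4A5 (chrX:108439588-108439837, plus strand): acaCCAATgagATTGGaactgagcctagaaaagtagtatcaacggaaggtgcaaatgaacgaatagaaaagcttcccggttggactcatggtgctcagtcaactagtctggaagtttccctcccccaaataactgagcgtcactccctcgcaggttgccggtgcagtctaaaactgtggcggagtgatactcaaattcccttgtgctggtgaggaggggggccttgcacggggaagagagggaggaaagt
COL6A3 (chr2:237414165-237414414, minus strand): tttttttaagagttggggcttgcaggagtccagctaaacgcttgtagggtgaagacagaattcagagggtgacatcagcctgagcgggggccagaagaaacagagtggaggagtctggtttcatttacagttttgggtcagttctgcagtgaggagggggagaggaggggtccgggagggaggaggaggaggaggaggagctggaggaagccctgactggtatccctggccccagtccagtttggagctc
COL11A1 (chr1:103108523-103108772, minus strand): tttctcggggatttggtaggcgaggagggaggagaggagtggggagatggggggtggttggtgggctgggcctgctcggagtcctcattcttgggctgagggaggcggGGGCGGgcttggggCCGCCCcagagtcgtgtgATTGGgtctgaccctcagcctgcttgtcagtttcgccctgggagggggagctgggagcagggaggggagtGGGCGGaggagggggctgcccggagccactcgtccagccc

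The bases between COL4A1 and COL4A2 are 80.2% G or C, against a median of 58% over 35116 windows of 250 bases before start sites. They hold 1 CCAAT and 1 GGGCGG. The COL4A5 window has CCAAT on both strands, the COL11A1 window has 3 matches to the GC box and 1 to the CCAAT box, and the COL6A3 window has neither. RefSeq windows were at hand for 31 of the 43 chains (43 windows), among them 13 of the 17 expressed ones. CCAAT was in 12 of the 43 windows (27.9%, against 32% of all windows), GGGCGG in 24 (55.8%, against 42.6%) and TATAAA in 8 (18.6%, against 10.7%). The forkhead motif TGTTTAC was in 0 of the 43 windows (2.98% of all), and TATTTAT, a motif bound by FOXP proteins, was in 3 (6.98%, against 4.6%), those of COL10A1, COL13A1 and COL17A1, all of which had means under 1 BPKM. Both strands were searched for each motif. On the other strand TATTTAT can share letters with TATAAA, and a match is a description of letters only.

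COL4A1 and COL4A2 encode the chains of the type IV collagen found in nearly every basement membrane. COL4A1 was at 28.96 and 3.79 BPKM with hsaFOXP2, 11.4 and 9.02 with ptrFOXP2, 8.57 and 6.75 with mmuFOXP2, 5.96 and 10.2 with cjaFOXP2 and 9 and 13.1 with pcDNA3 in replicates B and A. COL4A2 was at 69.0 and 7.64 BPKM with hsaFOXP2, 29.4 and 21.7 with ptrFOXP2, 24.5 and 18.7 with mmuFOXP2, 16.5 and 32.7 with cjaFOXP2 and 24.1 and 27.2 with pcDNA3. Both genes were highest in hsaFOXP2 replicate B and lowest in hsaFOXP2 replicate A, while the other 8 libraries lay between 5.96 and 13.1 BPKM for COL4A1 and between 16.5 and 32.7 BPKM for COL4A2. The ratio of COL4A2 to COL4A1 stayed between 2.02 and 3.19 (Pearson r = 0.966 of log2 values over 10 libraries, Spearman rho = 0.903).

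COL4A5 and COL4A6 form a type IV network in smooth muscle and some epithelial basement membranes. COL4A5 was at 21.1 and 19.2 BPKM with hsaFOXP2, 8.81 and 11.5 with ptrFOXP2, 11.97 and 12.9 with mmuFOXP2, 17.2 and 21.2 with cjaFOXP2 and 13.6 and 9.63 with pcDNA3 in replicates B and A. COL4A6 was at 9.45 and 13.7 BPKM with hsaFOXP2, 4.1 and 8.76 with ptrFOXP2, 7.26 and 8.73 with mmuFOXP2, 11 and 11.3 with cjaFOXP2 and 9.1 and 5.39 with pcDNA3. This pair also moved together over the 10 libraries (r = 0.868, rho = 0.903), but on its own course, since COL4A1 and COL4A5 were not related (r = -0.028). COL4A3 and COL4A4, chains of the kidney filter membrane, had means of 0.0186 and 0.113 BPKM (r = 0.858, rho = 0.6). Such correlations share the libraries and their scaling, and they are descriptions without a test. By the same measure, the chains most like COL4A5 and like COL3A1 were COL11A1 (r = 0.923) and COL6A1 (r = 0.929), neither of which is a known head-to-head partner.

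**Figure D1:**
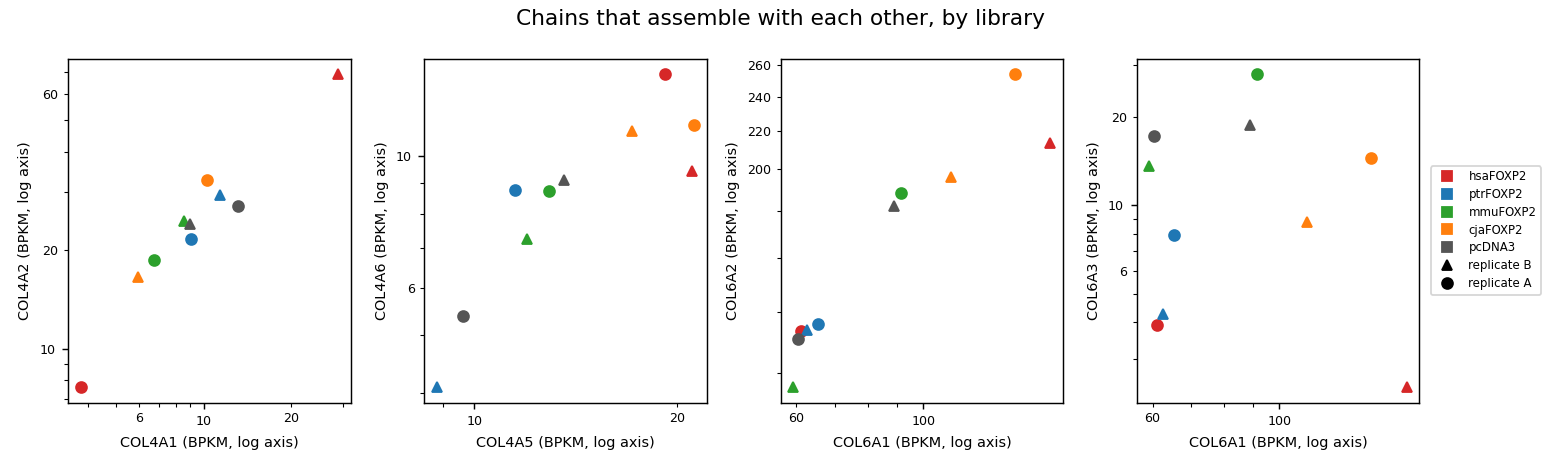
BPKM of chains that assemble with each other, each symbol a library, both axes logarithmic, colours for conditions and triangles and circles for replicates B and A. COL4A1 and COL4A2, COL4A5 and COL4A6, and COL6A1 and COL6A2 lie along rising lines, whereas COL6A3 spreads without relation to COL6A1 (r = -0.13).

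COL18A1, a basement membrane proteoglycan whose end is released as endostatin, was the steadiest of the 17 chains. It was at 42.5 and 54.1 BPKM with hsaFOXP2, 55.2 and 49.3 with ptrFOXP2, 49.4 and 61.0 with mmuFOXP2, 46.2 and 54.3 with cjaFOXP2 and 60.6 and 40.9 with pcDNA3 in replicates B and A, with a coefficient of variation of 13.5% over the 10 libraries, and no condition stood apart. Its relative COL15A1 did not exceed 0.0265 BPKM in any library.

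Type VI collagen, which forms beaded filaments around cells, is usually built from 1 chain each of COL6A1, COL6A2 and COL6A3. COL6A1 was at 167 and 61.0 BPKM with hsaFOXP2, 62.6 and 65.5 with ptrFOXP2, 59.3 and 91.5 with mmuFOXP2, 112 and 145 with cjaFOXP2 and 88.8 and 60.5 with pcDNA3 in replicates B and A. COL6A2 was at 214 and 133 BPKM with hsaFOXP2, 134 and 136 with ptrFOXP2, 116 and 189 with mmuFOXP2, 196 and 254 with cjaFOXP2 and 183 and 131 with pcDNA3. These neighbouring genes ran together (r = 0.945, rho = 0.988), with hsaFOXP2 replicate B and both cjaFOXP2 libraries highest for each.

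COL6A3, which encodes the largest of these chains, went its own way. In replicates B and A it was at 2.41 and 3.93 BPKM with hsaFOXP2, 4.28 and 7.92 with ptrFOXP2, 13.6 and 27.9 with mmuFOXP2, 8.78 and 14.4 with cjaFOXP2 and 18.7 and 17.2 with pcDNA3. The hsaFOXP2 libraries were the lowest of all 10, ptrFOXP2 replicate B came next at 4.28 BPKM, and both pcDNA3 libraries lay above all others except mmuFOXP2 replicate A. COL6A2 exceeded COL6A3 by 6.76-fold in mmuFOXP2 replicate A and by 88.6-fold in hsaFOXP2 replicate B. The span of COL6A3 over the 10 libraries was 11.6-fold.

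Among the remaining chains, COL7A1, the anchoring fibril chain of skin, was at 5.91 and 4.91 BPKM with hsaFOXP2, 3 and 3.97 with ptrFOXP2, 2.95 and 5.55 with mmuFOXP2, 3.45 and 4.3 with cjaFOXP2 and 3.83 and 3.54 with pcDNA3 in replicates B and A, with hsaFOXP2 replicate B highest, then mmuFOXP2 replicate A and hsaFOXP2 replicate A. The type IX chains COL9A2 and COL9A3 coat cartilage fibrils. COL9A2 was at 3.52 and 0.672 BPKM with hsaFOXP2, 1.43 and 2.22 with ptrFOXP2, 1.85 and 1.68 with mmuFOXP2, 2.84 and 7.06 with cjaFOXP2 and 2.37 and 2.69 with pcDNA3, and COL9A3 was at 3.73 and 1.05 BPKM with hsaFOXP2, 1.07 and 1.29 with ptrFOXP2, 0.807 and 2.54 with mmuFOXP2, 2.04 and 3.07 with cjaFOXP2 and 2.46 and 2.29 with pcDNA3. For both, replicate A of hsaFOXP2 was under each pcDNA3 library and replicate B was above each. COL8A2, a chain of the hexagonal network under the corneal endothelium, was at 6.4 and 0.173 BPKM with hsaFOXP2, 1.27 and 0.792 with ptrFOXP2, 0.693 and 0.601 with mmuFOXP2, 1.9 and 4.44 with cjaFOXP2 and 1.56 and 1.31 with pcDNA3, and the hsaFOXP2 libraries were the highest and the lowest of all 10, 37.1-fold apart.

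The chains just under 1 BPKM were COL16A1, with a mean of 0.9997 BPKM, and COL19A1, with a mean of 0.915 BPKM, both of the family that decorates fibrils. The chain just above was COL8A2 with a mean of 1.91 BPKM. COL19A1 was at 1.97 and 0.928 BPKM with hsaFOXP2, 0.57 and 0.922 with ptrFOXP2, 0.424 and 0.64 with mmuFOXP2, 0.774 and 0.858 with cjaFOXP2 and 1.44 and 0.636 with pcDNA3 in replicates B and A. COL13A1, a membrane collagen of the neuromuscular junction, was at 0.0431 and 0.743 BPKM with hsaFOXP2, 0.216 and 0.362 with ptrFOXP2, 0.524 and 1.24 with mmuFOXP2, 0.0694 and 0.244 with cjaFOXP2 and 0.419 and 0.367 with pcDNA3, lower in replicate B in every condition except pcDNA3. Of the 43 chains, 13 were listed at 0 in at least 1 library, and 2 of these, COL6A5 and COL25A1, were above 0 in a single library and were not tested.

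The comparison of human with non-human FOXP2 asks whether collagen RNA differs between cells with the human cDNA and cells with the other primate cDNAs. FOXP2 RNA was also lower in both hsaFOXP2 libraries (0.932 and 1.54 BPKM in replicates B and A) than in the non-human FOXP2 libraries (2.09 to 30.2 BPKM). Effects of the protein sequence and of the FOXP2 RNA level therefore cannot be told apart here. Of the 41 chains tested, 0 passed an adjusted p of 0.05 by limma, the moderated linear model fitted to log2(BPKM + 0.1) of 21937 genes with Benjamini-Hochberg adjustment, and 2 of those genes (0.00912%) passed. At an unadjusted p under 0.05, 4 of the 41 chains were found (9.76%), against 4.44% of all genes. COL5A1 was higher in hsaFOXP2 libraries (97.5 and 73.8 BPKM in replicates B and A) than in non-human FOXP2 libraries, which ranged over 42.0 to 73.6 BPKM. Its log2 fold change was 0.77 ± 0.23 (SE, limma), with an adjusted p of 0.874. COL11A1 (0.47 ± 0.18) and COL19A1 (0.91 ± 0.33) had positive values as well, with adjusted p-values of 1 by limma.

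COL6A3 had the largest fitted difference of the 4. Its mean was 3.17 ± 1.08 BPKM over the hsaFOXP2 libraries (SD, n = 2), against 12.8 ± 8.30 BPKM over those of the other primates (SD, n = 6), and the groups did not overlap. The log2 fold change was -1.78 ± 0.60 (SE), with an adjusted p of 0.963 by limma. The range of the lower chains was narrow on this scale, since a pseudocount of 0.1 BPKM shrinks the differences of genes that lie under it.

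**Figure D2:**
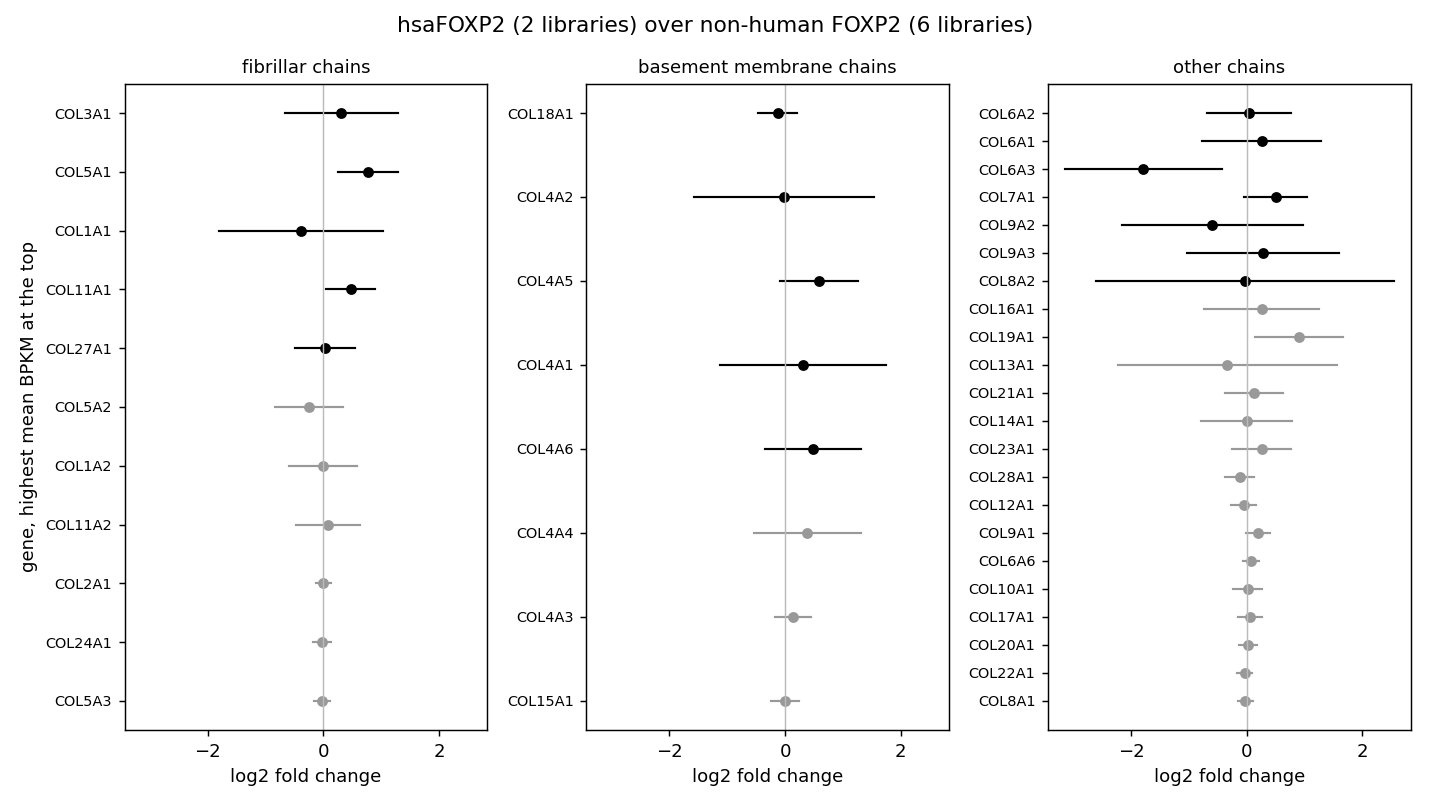
Log2 fold change of hsaFOXP2 (2 libraries) over non-human FOXP2 (6 libraries) for the 41 tested chains in 3 classes, ordered by mean BPKM from the top. Points are limma estimates on log2(BPKM + 0.1), bars are 95% intervals without adjustment for the number of genes, and black marks the 17 chains with a mean of at least 1 BPKM. The bars of COL5A1, COL11A1, COL19A1 and COL6A3 do not cross 0, and those of COL4A1, COL4A2 and COL8A2 are among the widest.

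By class, 2 of 11 fibrillar chains, 0 of 8 basement membrane chains and 2 of 22 other chains tested had an unadjusted p under 0.05 in this comparison. The median log2 fold change was 0.0019 for fibrillar, 0.23 for basement membrane and 0.03 for other chains, beside 0.01 over all genes. Among the 17 chains with a mean of at least 1 BPKM, 11 had a positive and 6 a negative log2 fold change. The intervals were wide where the hsaFOXP2 replicates disagreed. The mean of COL3A1 was 827 ± 539 BPKM over 2 hsaFOXP2 libraries and 618 ± 205 BPKM over 6 non-human ones (SD). That of COL4A2 was 38.3 ± 43.4 BPKM over the hsaFOXP2 libraries and 23.9 ± 6.24 BPKM over the other 6 (SD).

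COL5A1 was the only chain with both hsaFOXP2 libraries above all 8 other libraries, a pattern that 2.23% of 23348 genes showed. COL6A3 was the only chain with both hsaFOXP2 libraries below all 8 others, which 1.61% of genes showed. COL5A1 exceeded the highest other library, ptrFOXP2 replicate B, by little (73.8 BPKM in hsaFOXP2 replicate A against 73.6 BPKM), whereas COL6A3 was at 3.93 BPKM in hsaFOXP2 replicate A against 4.28 BPKM in ptrFOXP2 replicate B. With the libraries scaled by median ratios, 1 chain lay outside the range of the others in place of 2 (3.91% of genes, against 3.85%). That chain was COL6A3, so the place of COL5A1 above all other libraries did not hold under this scaling. Without cjaFOXP2 replicate A there were 4 (5.57%).

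Each FOXP2 cDNA was then set against empty vector, which asks how far the collagen programme moves with FOXP2 at all. These 4 comparisons share the pcDNA3 libraries, so their values are given side by side and not as independent evidence. For 41 chains in each, 0 passed the adjusted threshold, where 0.00899% of 22238 genes did so for hsaFOXP2, 0.00899% for ptrFOXP2, 0.0045% for mmuFOXP2 and 0.00899% for cjaFOXP2. At an unadjusted p under 0.05 there were 4 chains for hsaFOXP2 (9.76%, against 4.77% of all genes), 2 for ptrFOXP2 (4.88%, against 3.38%), 1 for mmuFOXP2 (2.44%, against 3.11%) and 2 for cjaFOXP2 (4.88%, against 11%). Single libraries moved these counts. Without pcDNA3 replicate B there were 7 chains for hsaFOXP2 (5.16% of all genes in that fit) and 4 for ptrFOXP2 (3.6%), and without ptrFOXP2 replicate B there were 0 for ptrFOXP2 (1.96%). For mmuFOXP2 there were 0 without either of its own libraries (2.46% and 3.55% without replicates A and B) and 2 without either hsaFOXP2 library (4.5% and 4.49%) or either pcDNA3 library (2.62% and 3.54%). For cjaFOXP2 there were 6 without either hsaFOXP2 library (16.2% of all genes in both fits), 1 without cjaFOXP2 replicate A (6.19%) and 1 without pcDNA3 replicate A (4.46%), and a fit with the replicate letter as a block gave 6 (13.6%).

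COL6A3 had the lowest p of the chains with hsaFOXP2 and with ptrFOXP2, while COL9A1 had it with mmuFOXP2 and COL11A1 with cjaFOXP2. The COL6A3 log2 fold change over pcDNA3, where it averaged 18.0 ± 1.09 BPKM (SD, n = 2), was -2.50 ± 0.44 (SE) with hsaFOXP2 and -1.61 ± 0.44 with ptrFOXP2, with adjusted p-values of 0.393 and 0.970 by limma. With mmuFOXP2 and cjaFOXP2, COL6A3 was at 0.12 ± 0.44 and -0.67 ± 0.44. COL11A1 was at 0.73 ± 0.14 with hsaFOXP2 and 0.55 ± 0.14 with cjaFOXP2 over pcDNA3, with adjusted p-values of 0.462 and 0.291 by limma. COL4A5 was at 0.81 ± 0.21 with hsaFOXP2 and 0.73 ± 0.21 with cjaFOXP2, with adjusted p-values of 0.744 and 0.316 by limma. COL5A1 (0.73 ± 0.29 with hsaFOXP2), COL15A1 (0.25 ± 0.08 with ptrFOXP2) and COL9A1 (-0.31 ± 0.11 with mmuFOXP2) were the others, each with an adjusted p of 1 by limma, and the last 2 genes did not exceed 0.0299 BPKM in any library.

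**Figure D3:**
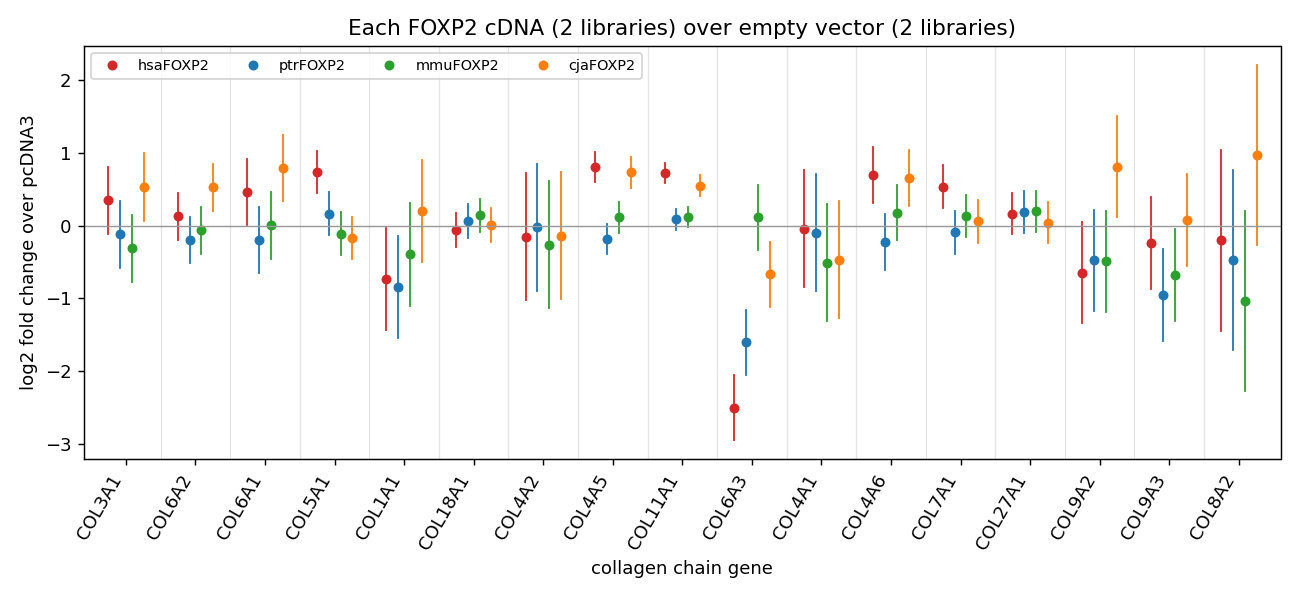
Log2 fold change of each FOXP2 cDNA over pcDNA3 (2 libraries each) for the 17 chains with a mean of at least 1 BPKM. Points are limma estimates on log2(BPKM + 0.1) and bars are ± 1 SE. COL6A3 lies lowest for hsaFOXP2 and ptrFOXP2, and COL4A5 and COL11A1 lie above 0 for hsaFOXP2 and cjaFOXP2.

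Taking the 4 FOXP2 cDNAs as 1 group against pcDNA3, 0 of 41 chains passed the adjusted threshold (0.0045% of all genes) and 3 had an unadjusted p under 0.05 (7.32%, against 3.57%). These were COL6A3 (-1.17 ± 0.35), COL11A1 (0.37 ± 0.11) and COL6A6 (-0.26 ± 0.10), the last at 0.0467 BPKM or less. An F test among the 5 conditions called 0 chains after adjustment (0.0135% of all genes) and 4 without it (9.76%, against 8.75%), namely COL6A3, COL11A1, COL4A5 and COL15A1. The smallest adjusted p of these was 0.351 for COL6A3 by limma. Without hsaFOXP2 replicates A and B in turn, the count for the FOXP2 group was 5 and 6 (5.7% and 5.35% of all genes) and that of the F test 12 and 11 (16.3% and 17.9% of all genes), and without pcDNA3 replicate A the FOXP2 group had 1 (2.31%). In cjaFOXP2 libraries, all 5 markers of cycling cells had a negative log2 fold change over pcDNA3, from -1.02 for CDK1 to -0.64 for MKI67, and their summed level was 73.0 BPKM in cjaFOXP2 replicate A, the lowest of all libraries. Their part in the collagen values was not tested.

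Of the 5 conditions, hsaFOXP2 had the largest median difference in collagen levels between its replicates. For the 17 chains, the median absolute log2 difference between replicates B and A was 0.871 with hsaFOXP2, 0.393 with ptrFOXP2, 0.339 with mmuFOXP2, 0.371 with cjaFOXP2 and 0.304 with pcDNA3. Over the 13412 genes that averaged 1 BPKM or more, the same medians were 0.361, 0.185, 0.191, 0.205 and 0.228. More than a 2-fold difference was found for 8 of 17 chains with hsaFOXP2 (47.1%, against 8.9% of genes), 1 with ptrFOXP2 (5.88%, against 1.98%), 3 with mmuFOXP2 (17.6%, against 2.15%), 2 with cjaFOXP2 (11.8%, against 0.843%) and 0 with pcDNA3 (0.984% of genes).

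**Figure D4:**
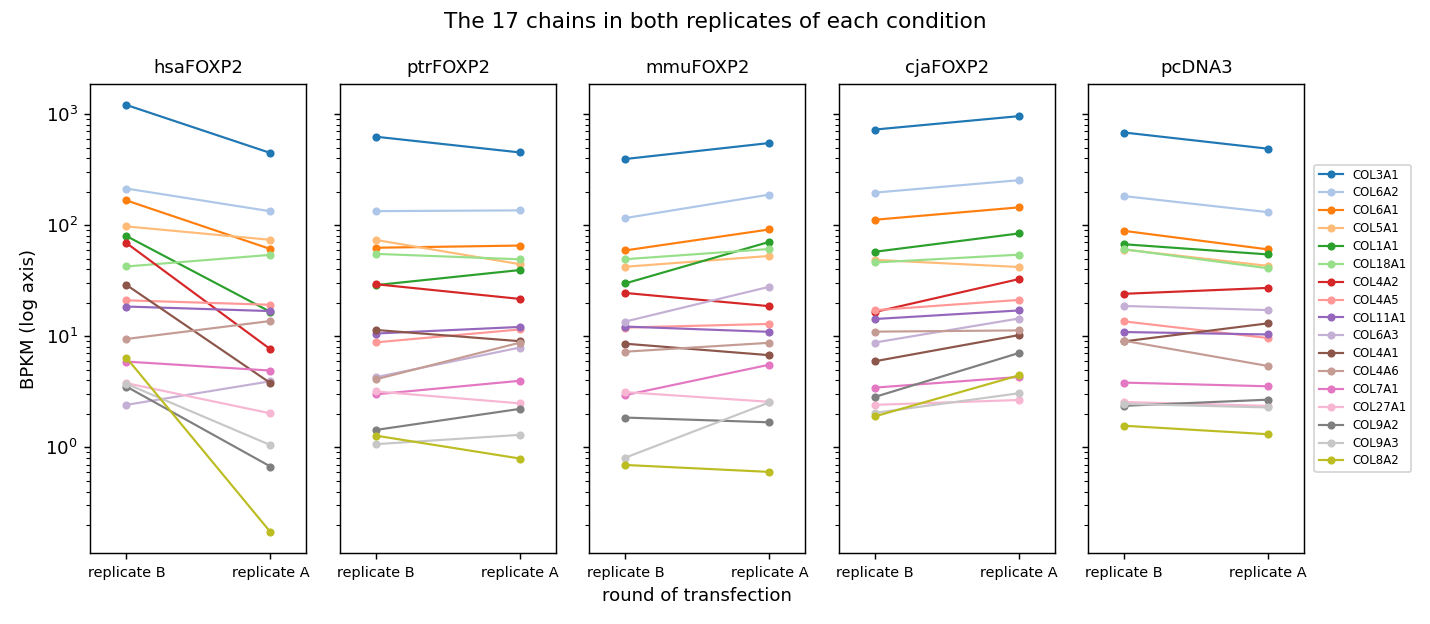
BPKM (log axis) of the 17 chains in replicates B and A of each condition, each line a chain. The lines of hsaFOXP2 fall steeply towards replicate A for 8 chains, COL8A2 the most (37.1-fold), while those of the other conditions are flatter.

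Replicate B of hsaFOXP2 was the highest of the 10 libraries for 10 of 17 chains, against 11.3% of the 13412 genes, and replicate A the lowest for 6, against 13.9% of genes. Replicate A was the highest library for 21.8% of genes and for 1 of the 17 chains. COL4A1, COL4A2, COL8A2 and COL27A1 were at once highest in replicate B and lowest in replicate A (23.5% of the 17 chains, against 2.84% of genes). COL4A2 differed 9.03-fold between these libraries, COL4A1 7.64-fold, COL9A2 5.24-fold, COL1A1 4.82-fold, COL6A1 2.74-fold and COL3A1 2.71-fold. COL5A1, COL11A1, COL4A5 and COL18A1 differed by 1.32-fold or less, and COL6A3 by 1.63-fold in the other direction.

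Results that rest on hsaFOXP2 were therefore computed without each of these libraries. Without replicate A, 10 of 41 chains had an unadjusted p under 0.05 between hsaFOXP2 and non-human FOXP2 (6.58% of all genes), and without replicate B 7 did (9% of all genes). Against pcDNA3 these counts were 13 and 9 (10.6% and 11.4% of all genes), and in neither comparison did a chain pass the adjusted threshold. With 1 hsaFOXP2 library, 19 and 16 chains lay outside the range of all others without replicates A and B (24.3% and 31.6% of genes). The log2 fold change of COL6A3 over non-human FOXP2 was -2.13 without replicate A and -1.44 without replicate B, that of COL5A1 0.97 and 0.57, and that of COL19A1 1.41 and 0.40.

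Mesenchymal markers differed between the same libraries in both directions. Of the 10, 5 were higher and 4 lower in hsaFOXP2 replicate B than in replicate A. LUM, a small proteoglycan that binds fibrillar collagen, was at 95.6 and 25.7 BPKM with hsaFOXP2, 25.3 and 26.1 with ptrFOXP2, 19.1 and 38.0 with mmuFOXP2, 92.3 and 95.8 with cjaFOXP2 and 64.0 and 32.4 with pcDNA3 in replicates B and A, and PDGFRB, a growth factor receptor of mesenchymal cells, was at 42.3 and 12.3 BPKM with hsaFOXP2, 26.7 and 18.8 with ptrFOXP2, 18.9 and 20.7 with mmuFOXP2, 30.4 and 41.1 with cjaFOXP2 and 34.0 and 19.6 with pcDNA3. In the opposite direction, PRRX1, a transcription factor of mesenchymal cells, was at 1.90 BPKM in hsaFOXP2 replicate B and 42.3 BPKM in replicate A, 22.3-fold apart, and PDGFRA, the sister receptor of PDGFRB, was at 22.9 and 51.1 BPKM in the same replicates. The summed level of the 10 mesenchymal markers was 388 and 304 BPKM in hsaFOXP2 replicates B and A, between 248 and 415 BPKM in those of the other primates and 396 and 253 BPKM in pcDNA3 replicates B and A. MALAT1 and NEAT1, nuclear RNAs used as a sign of RNA quality, summed to 63.4 and 30.8 BPKM in hsaFOXP2 replicates B and A, between 35.6 and 142 BPKM in those of the other primates and 96.0 and 49.6 BPKM in pcDNA3 replicates B and A. The part of these values in the collagen differences was not tested.

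The 2 rounds of transfection were also compared across all conditions. In an additive limma fit of replicate B against replicate A, 0 of 41 chains passed the adjusted threshold (0% of 22238 genes) and 3 had an unadjusted p under 0.05 (7.32%, against 11% of all genes). COL6A3 was lower in replicate B in every condition but pcDNA3 (-0.64 ± 0.17, adjusted p = 0.430 by limma), COL13A1 likewise (-1.02 ± 0.36), and COL11A2, at 0.146 BPKM or less as the mean over its transcripts with those at 0, was higher in replicate B in all 5 conditions (0.24 ± 0.10, and 0.55 for its highest transcript). Without either pcDNA3 library 5 chains had an unadjusted p under 0.05 (8.86% and 8.83% of all genes without replicates A and B). Replicate B was above replicate A for 14 of 17 chains with hsaFOXP2 and with pcDNA3, 7 with ptrFOXP2, 6 with mmuFOXP2 and 1 with cjaFOXP2. The same share over all genes was not computed for each condition, so these counts describe the 17 chains only. None of the 17 chains with a mean of at least 1 BPKM was on the same side in all 5 conditions. In the same fit, 2 of 2 RNA quality genes, MALAT1 and NEAT1, were higher in replicate B at an unadjusted p under 0.05 by limma. At that threshold 2 of 5 markers of cycling cells were lower and 0 higher. Whether these genes bear on the collagen values was not tested.

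Genes that act on collagen were taken from 5 lists, and 0 of their members passed the adjusted threshold in any of the 8 tests. In the comparison of hsaFOXP2 with non-human FOXP2, unadjusted p-values under 0.05 were found for 1 of 19 biosynthesis genes, 2 of 12 processing and cross-linking genes, 0 of 8 receptors, 0 of 8 breakdown genes and 2 of 10 basement membrane partners, each with a positive log2 fold change, beside 4.44% of all genes in either direction. SERPINH1, the collagen chaperone of the endoplasmic reticulum and one of the genes that the study itself picked from these libraries, was at 211 and 186 BPKM with hsaFOXP2, 91.1 and 111 with ptrFOXP2, 89.5 and 126 with mmuFOXP2, 114 and 123 with cjaFOXP2 and 103 and 104 with pcDNA3 in replicates B and A. Both hsaFOXP2 libraries were above all others (log2 fold change 0.88 ± 0.17 over non-human FOXP2, adjusted p = 0.446 by limma).

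ADAMTS3, a protease that trims procollagen, was at 32.6 and 39.8 BPKM with hsaFOXP2, 20.05 and 18.7 with ptrFOXP2, 19.6 and 21.8 with mmuFOXP2, 31.4 and 32.6 with cjaFOXP2 and 26.3 and 17.97 with pcDNA3 in replicates B and A. Its log2 fold change was 0.62 ± 0.25 for hsaFOXP2 over non-human FOXP2 and 0.73 ± 0.20 over pcDNA3, and BMP1, which cleaves the other end of procollagen, was at 0.46 ± 0.18 and 0.52 ± 0.18. In cjaFOXP2 against pcDNA3, ADAMTS3 (0.56 ± 0.20) and LOXL3 (0.55 ± 0.20), a cross-linking oxidase, were positive too. At an unadjusted p under 0.05 by limma, cjaFOXP2 had 2 of 12 processing genes higher and 1 lower (11% of all genes). Of 10 basement membrane partners, 1 was higher and 1 lower. With ptrFOXP2, 1 processing gene, 1 breakdown gene and 1 partner were lower and 0 higher (3.38%). With mmuFOXP2, 1 processing gene was lower and 1 breakdown gene higher (3.11%). The FOXP2 group had 1 processing gene lower, with 1 partner higher and 1 lower (3.57%). LAMA5, a laminin chain of mature basement membranes, was at 42.0 and 35.4 BPKM with hsaFOXP2, 21.95 and 20.3 with ptrFOXP2, 25.97 and 26.95 with mmuFOXP2, 40.7 and 45.3 with cjaFOXP2 and 27.4 and 20.3 with pcDNA3 in replicates B and A, with log2 fold changes over pcDNA3 of 0.71 ± 0.17 for hsaFOXP2 and 0.86 ± 0.17 for cjaFOXP2 (adjusted p = 0.672 and 0.258 by limma). Between rounds, at an unadjusted p under 0.05, 4 of 19 biosynthesis genes and 3 of 8 receptors were lower in replicate B, 1 of 12 processing genes was higher, 1 of 8 breakdown genes was higher and 1 lower, and 0 of 10 basement membrane partners were found, beside 11% of all genes. Among the lower ones were P4HA3, a prolyl hydroxylase subunit (-0.98 ± 0.20), and ITGA2, a collagen-binding integrin (-0.44 ± 0.14).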

How the data were processed

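RNA-seq was analysed in 10 SH-SY5Y libraries, whose condition and replicate letter come from the labels. The authors prepared libraries from polyadenylated RNA (600 ng of total RNA), aligned filtered reads to hg19 with STAR and recorded the alignments on the exons of each UCSC transcript. They deposited BPKM, an RPKM computed on bases. The sources used here give no version for STAR. Reads shared between transcripts or overlapping genes could not be reassigned, and whether counting used strand is not stated. Of 80922 transcripts, 2 without a symbol (0.00247%) were left out.

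BPKM was averaged over the transcripts of each symbol, and log2(BPKM + 0.1) was fitted with limma 3.58.1 in R 4.3.3 (mean-variance trend, robust moderation) for genes above 0 in at least 2 libraries, with Benjamini-Hochberg adjustment over all genes tested and a threshold of 0.05. A fold change on this scale understates the change of low genes. The comparison of hsaFOXP2 with non-human FOXP2 used 8 libraries, and the others used 10. The scripts were tested on simulated data. Relative depth, roughly estimated from the steps of low values, ranged over 1 to 1.27. Since there are no counts, no counting interval can be given. Python 3.11.15, pandas 2.3.3 and matplotlib 3.10.9 were used for the rest.

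Named genes are the chains with a mean of at least 1 BPKM, lower chains with an unadjusted p under 0.05, the chains at the ends of a range or count, and up to 3 genes per pathway list and comparison by smallest p. Members and lists were chosen with earlier results of these data known. The replicate letters mark rounds of transfection and so pair the libraries. Differences between replicates B and A had correlations between conditions of -0.194 to 0.369 across genes, of which 5 of 10 exceeded 0.1, and the letter was used as a block in an alternative fit. Other alternatives were pseudocounts of 1 and 0.01, no filter, a mean of at least 1 BPKM, median-ratio scaling, the highest transcript per symbol, no trend, and leaving out each library. Promoter windows are those of RefSeq for GRCh38.p14.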

Additional observations from a re-analysis of the deposited data

Results flagged for a closer look

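In the 6 non-human FOXP2 libraries, each of the 17 chains with a mean of at least 1 BPKM was checked for a library far from the others by Dixon's criterion. Chance exceeds it in about 1 of 20 groups of like samples. These libraries come from 3 conditions, so that share does not hold here and the check only describes the values. There were 3 such chains. COL9A2 was at 7.06 BPKM in cjaFOXP2 replicate A, and the next library, replicate B of the same condition, had 2.84 BPKM. COL8A2 was at 4.44 BPKM in cjaFOXP2 replicate A, and the next was again cjaFOXP2 replicate B with 1.90 BPKM. COL5A1 was at 73.6 BPKM in ptrFOXP2 replicate B, and the next library had 52.8 BPKM.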

How the results depend on the processing

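No collagen chain passed the adjusted threshold in any of the 8 tests under an alternative run that kept all libraries. The 19 single-chain log2 fold changes, picked by unadjusted p in the main fits, kept their direction in all 328 alternative values, but not always their size. COL6A6 with the FOXP2 cDNAs over pcDNA3 went from -0.26 to -0.05 without pcDNA3 replicate A. It ranged over -1.09 to -0.03 in runs with all libraries, and COL15A1 with ptrFOXP2 over 0.03 to 1.23. COL11A1 with hsaFOXP2 over pcDNA3 stayed within 0.66 to 0.79 in all runs. The counts of chains at an unadjusted p under 0.05 moved as well. They are given here without the shares of all genes in the same runs and describe the chains only. With genes of a mean of at least 1 BPKM they were 1 for ptrFOXP2 against pcDNA3, 0 for mmuFOXP2 against pcDNA3 and 1 for replicate B against replicate A. With a pseudocount of 0.01 they were 4 for cjaFOXP2 against pcDNA3 and 5 for the FOXP2 cDNAs against pcDNA3, and with no filter the FOXP2 cDNAs again gave 5. With the replicate letter alone, 1 chain was found between the rounds, and with median-ratio scaling 1 chain lay outside the range of the other libraries. The replicate block gave 6 chains for cjaFOXP2 against pcDNA3 in place of 2, 6 in place of 4 for hsaFOXP2 against non-human FOXP2, and moved no other count by 1.5 times or more.

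When each library was left out in turn, the counts ranged over 3 to 10 for hsaFOXP2 against non-human FOXP2, 3 to 13 for hsaFOXP2, 0 to 4 for ptrFOXP2, 0 to 2 for mmuFOXP2, 1 to 6 for cjaFOXP2 and 1 to 6 for all FOXP2 cDNAs against pcDNA3, 3 to 12 among the 5 conditions, 2 to 5 between the rounds and 2 to 19 for chains outside the range of the others. The highest of these, apart from those of ptrFOXP2 and the rounds, were reached without an hsaFOXP2 library, and a lone library was assumed to vary like the other groups. The shares of all genes, given further up for the fits without an hsaFOXP2 library, rose as well. The counts alone therefore do not single out collagen. The causes were not tested. With 2 libraries per condition and no counts, chains at a few hundredths of a BPKM cannot be compared, and their listing at 0 does not show absence.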
